A study of Mus musculus with 2 samples.

Results

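The 36 genes described here belong to the antioxidant defence that is linked to the transcription factor NRF2. They were taken by symbol from a list, which was drawn up with earlier results of these data known, and all 36 of the 36 listed were found among the 32285 genes of the deposited tables. They comprise 2 regulators, 16 genes of glutathione making and use, 8 of the thioredoxin and peroxiredoxin system, 5 of the pentose phosphate pathway and NADPH supply, and 5 other antioxidant genes. The cells were mononuclear cells of the quadriceps of wild-type C57BL/6J mice. Every muscle had been injured by an injection of 100 µl of 1.2% (w/v) BaCl2, a salt that kills muscle fibres and leaves many of the mononuclear cells between them alive. One group was collected at 9 h after the injection and the other at 2 h, and neither an uninjured muscle nor another genotype was part of the comparison. Cells had been frozen and thawed, and each time gave 1 droplet library aimed at 5000 cells, so with 1 library per time there was no test. Time after injury and library cannot be told apart. The sources used here do not give the age or sex of the mice, or how many animals went into each library.

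NRF2, the product of Nfe2l2, is held in the cytoplasm by KEAP1, which hands it over for degradation. Oxidants and electrophiles modify KEAP1, NRF2 then builds up, enters the nucleus and binds antioxidant response elements in front of its target genes. Glutathione is a small thiol made from imported cystine; glutathione peroxidases spend it to destroy peroxides, glutathione transferases attach it to reactive compounds, and glutathione reductase restores it with NADPH. Thioredoxin and the peroxiredoxins form a parallel system that also runs on NADPH, much of which comes from the pentose phosphate pathway. In injured muscle, neutrophils and macrophages release oxidants, and fibro-adipogenic progenitors (FAPs), the resident connective tissue cells, are exposed to them.

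The antioxidant response element was looked for in the promoters to show which members carry its core close to the start of transcription. RefSeq promoter windows of GRCm38.p6, which run from 250 bases before to 50 bases after a start site, were matched by symbol for 31 of the 36 members (42 windows, as some genes have several). The core was written TGACNNNGC and searched on both strands. It was present in 10 of the 31 members (32.3%), against 3781 of all 27025 genes with a window (14%) and 12.4% of all 32851 windows. The 10 were G6pdx, Gclm, Me1, Mgst1, Nfe2l2, Pgd, Prdx1, Sod1, Srxn1 and Txnrd1. The motif TGANTCA, which can overlap it, was present in 5 of the 31 members (16.1%) and in 8.97% of all genes. In Prdx1 and Me1 an overlapping TGANTCA lay on the core. A match is a description of the letters and not a shown binding site. The windows of 3 members with the core and of 2 without it are printed as examples: Prdx1 and Me1 hold the overlapping pair of motifs, Gclm is a glutathione gene with the core, and Gsto1 and Slc7a11 are genes without it whose levels are described at length below. Capitals mark the core on the printed strand or, as in Prdx1 and Gclm, its reverse complement. The windows are Prdx1 (chr4:116685349-116685648, plus strand), Gclm (chr3:122245307-122245606, plus strand), Me1 (chr9:86695865-86696164, minus strand), Gsto1 (chr19:47854723-47855022, plus strand) and Slc7a11 (chr3:50443564-50443863, minus strand), each printed 5′ to 3′ along its gene.
Prdx1: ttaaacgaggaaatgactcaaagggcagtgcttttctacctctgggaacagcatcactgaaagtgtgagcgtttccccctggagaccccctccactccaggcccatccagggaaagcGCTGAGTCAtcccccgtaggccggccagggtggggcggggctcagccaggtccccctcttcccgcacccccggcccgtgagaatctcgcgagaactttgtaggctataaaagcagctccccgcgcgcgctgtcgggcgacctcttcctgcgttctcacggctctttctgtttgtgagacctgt
Gclm: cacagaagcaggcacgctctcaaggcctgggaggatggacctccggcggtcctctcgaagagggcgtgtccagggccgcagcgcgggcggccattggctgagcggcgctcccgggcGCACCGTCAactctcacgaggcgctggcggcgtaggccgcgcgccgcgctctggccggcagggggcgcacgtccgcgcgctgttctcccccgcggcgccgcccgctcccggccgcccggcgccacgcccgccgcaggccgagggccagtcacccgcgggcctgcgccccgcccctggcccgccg
Me1: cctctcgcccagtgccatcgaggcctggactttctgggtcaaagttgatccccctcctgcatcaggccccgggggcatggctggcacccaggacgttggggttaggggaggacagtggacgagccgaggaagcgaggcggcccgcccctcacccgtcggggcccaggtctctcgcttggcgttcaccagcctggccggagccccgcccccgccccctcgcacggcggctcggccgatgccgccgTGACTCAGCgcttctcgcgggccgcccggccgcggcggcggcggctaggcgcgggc
Gsto1: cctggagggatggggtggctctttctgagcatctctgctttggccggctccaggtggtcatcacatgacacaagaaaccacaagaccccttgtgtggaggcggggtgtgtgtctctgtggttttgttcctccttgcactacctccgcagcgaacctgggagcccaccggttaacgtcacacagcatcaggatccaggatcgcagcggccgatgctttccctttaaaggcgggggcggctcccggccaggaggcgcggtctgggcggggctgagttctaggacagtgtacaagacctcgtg
Slc7a11: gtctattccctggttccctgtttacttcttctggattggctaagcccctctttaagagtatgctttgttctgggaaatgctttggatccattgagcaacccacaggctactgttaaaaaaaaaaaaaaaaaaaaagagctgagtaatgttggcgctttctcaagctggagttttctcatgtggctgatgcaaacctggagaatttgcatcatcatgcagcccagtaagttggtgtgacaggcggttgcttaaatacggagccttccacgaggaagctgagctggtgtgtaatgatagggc

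At 9 h the deposited table had 8790 barcodes and 36042307 UMIs (counted RNA molecules), and at 2 h it had 5729 barcodes and 28635763 UMIs. After filters 8147 and 4900 cells were kept, with a median of 2327 UMIs per cell at 9 h and 4519 at 2 h, and 12 kept barcodes occurred in both libraries. Cells were clustered without the 36 members among the variable genes and named from marker genes. The 6 classes with at least 100 cells in each library were compared: FAP-like (2356 cells at 9 h and 1992 at 2 h), neutrophil-like (4276 and 1631), monocyte-like (357 and 169), resident macrophage-like (245 and 323), endothelial-like (574 and 282) and dendritic-like (110 and 140). In the same order of classes the median UMIs per cell were 8234.5 and 7953, 1654 and 2013, 5803 and 7921, 5560 and 5853, 2423 and 3181, and 7490.5 and 8903. The labelled tissue was borne out by satellite-like, tenocyte-like and FAP-like cells, while markers of muscle fibres summed to at most 102 CPM in any compared class (CPM, UMIs of a gene for every 1000000 UMIs of the class). FAP-like cells carried all 15 FAP markers at both times, with a sum of 28090.1 CPM at 9 h and 68149.6 CPM at 2 h. They lay in different clusters at the 2 times, with 1657 of the 9 h cells in cluster 14, 427 in cluster 19 and 220 in cluster 15, whereas 1400 of the 2 h cells were in cluster 1 and 575 in cluster 0. None of the 15 markers was among the 10 leading genes of clusters 14 and 19. The 12 neutrophil markers summed to 117051 CPM at 9 h and 149335 CPM at 2 h in neutrophil-like cells, which were split likewise, with clusters 7, 18 and 17 mostly of 9 h cells and cluster 6 mostly of 2 h cells. Other classes also differed in their markers: platelet genes summed to 1716 CPM at 9 h and 38.8 CPM at 2 h in resident macrophage-like cells, FAP markers there to 1444 and 6256 CPM, and the 10 dendritic markers in dendritic-like cells to 8517 and 1767 CPM. The part of these differences in the results was not tested. A level is the CPM of the summed UMIs of a class, its 95% interval is an exact Poisson interval, and a ratio between the times carries an exact conditional binomial interval. All of these cover counting error only and neither the spread between cells nor that between animals. A member was counted as measured in a class with at least 100 UMIs over both libraries, and as higher or lower when the log2 ratio with a pseudocount of 10 CPM was at least 1 in size, that is 2-fold.

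The plainest contrast in the gene set was between cell types, and the differences between the times were specific to genes rather than shared by the set. Most Slc7a11 UMIs lay in neutrophil-like cells, where its level was nearly the same at 9 h and 2 h. In FAP-like cells the glutathione transferases parted: Gsto1 was 10.2-fold higher at 9 h, while Gstm1, Gstm2, Mgst1 and Mgst3 were lower. In neutrophil-like cells Txn1, Taldo1 and Tkt were lower at 9 h. Prdx1 and Prdx5 were above their 2 h level in all 6 classes, and Sod1 and Selenop were below it in all 6, also under another scaling (TMM). With cells thinned to 1000 UMIs the log2 ratio of Sod1 in resident macrophage-like cells was 0.10 in place of -0.54. The direction of Prdx5 in endothelial-like cells turned at a clustering resolution of 2, as given below.

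**Figure D1:**
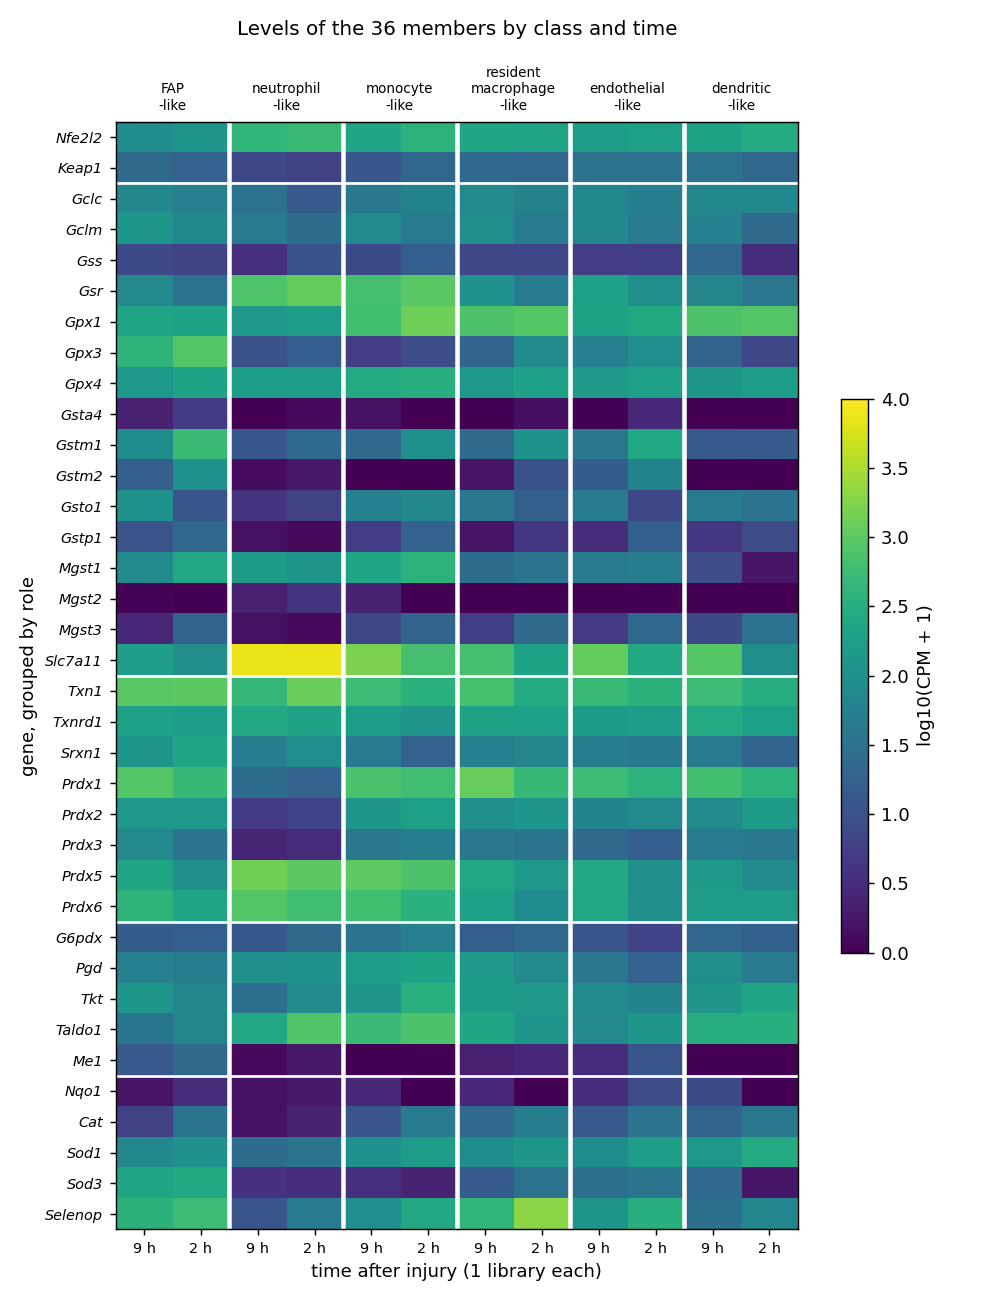
Level of each of the 36 members, as log10(CPM + 1) in colour, in the 6 compared classes, with the 9 h library left of the 2 h library in each pair; white lines part the groups of genes by role. Slc7a11 is brightest in neutrophil-like cells at both times (7625 CPM at 9 h and 7737 CPM at 2 h), and Gpx3, Sod3 and Selenop are dark in neutrophil-like cells.

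The pair of regulators showed small differences. Nfe2l2 (ENSMUSG00000015839, mm10 chromosome 2, 75675513 to 75704641, minus strand), which encodes NRF2, was measured in all 6 classes. Its level in neutrophil-like cells was 432 CPM at 9 h (417 to 446) and 511 CPM at 2 h (487 to 535). It was 231 and 380.0 CPM in monocyte-like cells, 87.8 and 132 CPM in FAP-like cells, 209.7 and 289 CPM in dendritic-like cells, and 168 and 188 CPM in endothelial-like cells. Resident macrophage-like cells were at 220.5 CPM at 9 h and 216 CPM at 2 h, with intervals that overlap. No class reached 2-fold, and the log2 ratio lay between -0.69 and 0.03. Without clusters 14 and 19, which hold most FAP-like cells of 9 h, the log2 ratio of Nfe2l2 in FAP-like cells was 0.19 in place of -0.54. Keap1, the NRF2 inhibitor, was measured in FAP-like cells only, at 23.0 CPM at 9 h (20.9 to 25.3) and 17.1 CPM at 2 h (15.1 to 19.2).

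Slc7a11 (ENSMUSG00000027737, chromosome 3, 49892526 to 50443614, minus strand) encodes the cystine importer that feeds glutathione synthesis. In neutrophil-like cells it stood at 7625 CPM at 9 h (7565 to 7685) and 7737 CPM at 2 h (7645 to 7829.7), a ratio of 0.985 (0.972 to 1.0). Its log2 ratio was -0.02, and 0.13 under TMM scaling. These cells held 85.4% of all Slc7a11 UMIs at 9 h and 88.4% at 2 h. With cells thinned to 1000 UMIs, 96.8% of neutrophil-like cells had a Slc7a11 UMI at 9 h and 97.3% at 2 h, against 7.90% and 4.42% of FAP-like cells (median depths before thinning of 1654 and 2013 UMIs in neutrophil-like and 8234.5 and 7953 UMIs in FAP-like cells). All thinned values leave out cells with under 1000 UMIs. These were 324 neutrophil-like cells at 9 h and 95 at 2 h, and 52 and 23 FAP-like cells. Every neutrophil-like cluster was high, from 7457 CPM in cluster 18 to 8576 CPM in cluster 5 at 9 h, and from 7535 CPM in cluster 6 to 8755 CPM in cluster 7 at 2 h. Slc7a11 was also one of the 10 leading genes of cluster 5, so its level there is a description.

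The other classes had less Slc7a11, and most had more at 9 h. Monocyte-like cells were at 1617 CPM at 9 h and 652 CPM at 2 h, a ratio of 2.48 (2.30 to 2.68). Resident macrophage-like cells were at 671 and 209.9 CPM (ratio 3.20, 2.87 to 3.57), and dendritic-like cells at 868 and 93.3 CPM (ratio 9.30, 7.68 to 11.3). Endothelial-like cells were at 1124 and 261 CPM, and FAP-like cells at 166 and 92.7 CPM. Neutrophil RNA in these classes was estimated as if all their S100a8, an abundant neutrophil transcript, had come from neutrophil-like cells. That estimate gave 952 CPM of Slc7a11 at 9 h and 307 CPM at 2 h in endothelial-like cells, and 139 and 75.1 CPM in FAP-like cells, close to or above what was found. It gave 478 and 178 CPM in monocyte-like cells, 106 and 83.5 CPM in resident macrophage-like cells, and 260.0 and 61.6 CPM in dendritic-like cells, below what was found. The tenth of resident macrophage-like cells richest in Slc7a11 held 64.4% of its UMIs at 9 h and 84.0% at 2 h. The part that cells joined in 1 droplet had in these values was not tested.

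With the pseudocount, the enzymes that make glutathione did not reach 2-fold in any measured class. Gclm, the modifier subunit of the rate-limiting glutamate-cysteine ligase, was measured in 5 classes and above its 2 h level in each. It was at 125 CPM at 9 h (120.4 to 130.4) and 73.6 CPM at 2 h (69.4 to 77.9) in FAP-like cells, and at 92.8 and 41.9 CPM in resident macrophage-like cells, where the ratio was 2.22 (1.70 to 2.90) but the log2 ratio with the pseudocount 0.99. Gclc, the catalytic subunit, was at 30.2 and 12.8 CPM in neutrophil-like cells (ratio 2.35, 1.71 to 3.31) and at 39.4 and 63.8 CPM in monocyte-like cells. Gss, which adds the last amino acid, was measured in FAP-like cells only, at 6.54 CPM at 9 h and 5.69 CPM at 2 h, with overlapping intervals. Gsr (chromosome 8, 33652523 to 33698163, plus strand), the reductase that restores glutathione, differed by class. It was 2.36-fold higher at 9 h in FAP-like cells, at 74.6 CPM (70.9 to 78.6) against 31.6 CPM at 2 h (28.9 to 34.5), a call that was lost with each cell weighted alike. Resident macrophage-like cells were at 105 and 41.9 CPM (ratio 2.51, 1.94 to 3.26). In neutrophil-like cells, which held 65.3% of Gsr UMIs at 9 h and 65.7% at 2 h, Gsr was at 799.5 and 1143 CPM (ratio 0.700, 0.673 to 0.728), and in monocyte-like cells at 659 and 955 CPM. Endothelial-like cells were at 196 and 97.8 CPM, just under 2-fold with the pseudocount. Neutrophil RNA was estimated at 99.8 CPM of Gsr at 9 h and 45.3 CPM at 2 h in endothelial-like cells, and at 14.6 and 11.1 CPM in FAP-like cells.

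The glutathione peroxidases, which reduce peroxides with glutathione, were below their 2 h level or within 2-fold of it in every compared class. Gpx1, the cytosolic enzyme, was at 609 CPM at 9 h (576 to 644) and 1332 CPM at 2 h (1269.5 to 1396) in monocyte-like cells, a ratio of 0.457, and this call was lost under TMM scaling. It was at 217 and 211 CPM in FAP-like cells, 754 and 873 CPM in resident macrophage-like cells, 749 and 849.7 CPM in dendritic-like cells and 142 and 162 CPM in neutrophil-like cells, and at 208 and 269 CPM in endothelial-like cells, all under 2-fold. Gpx3 (chromosome 11, 54902453 to 54910377, plus strand) encodes the secreted enzyme of blood plasma. FAP-like cells held 82.9% of its UMIs at 9 h and 77.9% at 2 h and had 399.6 CPM at 9 h (391 to 409) and 839 CPM at 2 h (825 to 853), a ratio of 0.476. That difference was no longer 2-fold under TMM scaling, with cells thinned to 1000 UMIs or with each cell weighted alike. Among the small classes, tenocyte-like cells were at 1419.7 and 3089.5 CPM and satellite-like cells at 2295 and 2173 CPM. Gpx3 also counted as lower in resident macrophage-like cells, at 19.3 CPM at 9 h and 82.5 CPM at 2 h, where RNA from FAP-like cells, estimated in the same way from Dcn, would bring 19 and 72.4 CPM. Gpx4, which protects membrane lipids, was measured in all 6 classes with log2 ratios between -0.59 and 0.09. It was at 133 and 205 CPM in FAP-like, 173 and 162 CPM in neutrophil-like, 274 and 328 CPM in monocyte-like, 136 and 196 CPM in resident macrophage-like, 147 and 188 CPM in endothelial-like and 131 and 168 CPM in dendritic-like cells.

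In FAP-like cells the 4 members with the largest log2 ratios in size were glutathione transferases, at 2.53 for Gsto1, -2.48 for Gstm1, -2.22 for Gstm2 and -1.55 for Mgst1. Cat was close behind at -1.54. This order depends on the pseudocount: by the plain ratios given below, Mgst3 and Cat differed more than Mgst1. Gsto1 (chromosome 19, 47854970 to 47864790, plus strand), an omega-class transferase, was at 110.2 CPM at 9 h (106 to 115) and 10.8 CPM at 2 h (9.21 to 12.5), a ratio of 10.2 (8.76 to 12). After thinning to 1000 UMIs, a Gsto1 UMI was found in 9.68% of FAP-like cells at 9 h (8.50 to 11%, Clopper-Pearson) and in 1.07% at 2 h (0.661 to 1.63%), against 0.253% and 0.521% of neutrophil-like cells. Gstm1 (chromosome 3, 108012255 to 108017973, minus strand), a mu-class transferase, went the other way, at 86.9 CPM at 9 h (82.8 to 91.1) against 532 CPM at 2 h (521 to 543), a ratio of 0.163 (0.155 to 0.172). It had a UMI in 7.94% of thinned FAP-like cells at 9 h and in 38.1% at 2 h, against 0.759% and 2.15% of neutrophil-like cells. Its neighbour Gstm2 (chromosome 3, 107981702 to 107986453, minus strand) was at 15 CPM at 9 h and 106 CPM at 2 h (ratio 0.141, 0.124 to 0.160). How the counting treated reads that match both of these close relatives was not checked, so the levels of each by itself are uncertain.

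The microsomal transferases, which sit in membranes, were lower at 9 h in FAP-like cells too. Mgst1 was at 77.7 CPM at 9 h (73.8 to 81.7) and 247 CPM at 2 h (239 to 255), a ratio of 0.315, and Mgst3 at 1.85 and 18.7 CPM (ratio 0.0991, 0.0681 to 0.140). Gstp1, a pi-class enzyme with close relatives, was at 9.69 and 20.5 CPM. Gsta4 (25 UMIs at 9 h and 65 at 2 h) and Mgst2 (2 and 0 UMIs) were under the minimum in FAP-like cells and in every other compared class. Outside FAP-like cells, Gstm1 was also lower at 9 h in endothelial-like cells (39.1 and 248 CPM), resident macrophage-like cells (23.2 and 111 CPM) and monocyte-like cells (21.9 and 101 CPM). In those 3 classes, RNA carried over from FAP-like cells was estimated at 14.2 and 67.7 CPM, 4.13 and 45.9 CPM, and 0.371 and 3.31 CPM of Gstm1. Mgst1 in neutrophil-like cells, by contrast, was at 152 CPM at 9 h and 117 CPM at 2 h (ratio 1.31, 1.17 to 1.46), under 2-fold. In monocyte-like cells it was at 236 and 391 CPM.

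**Figure D2:**
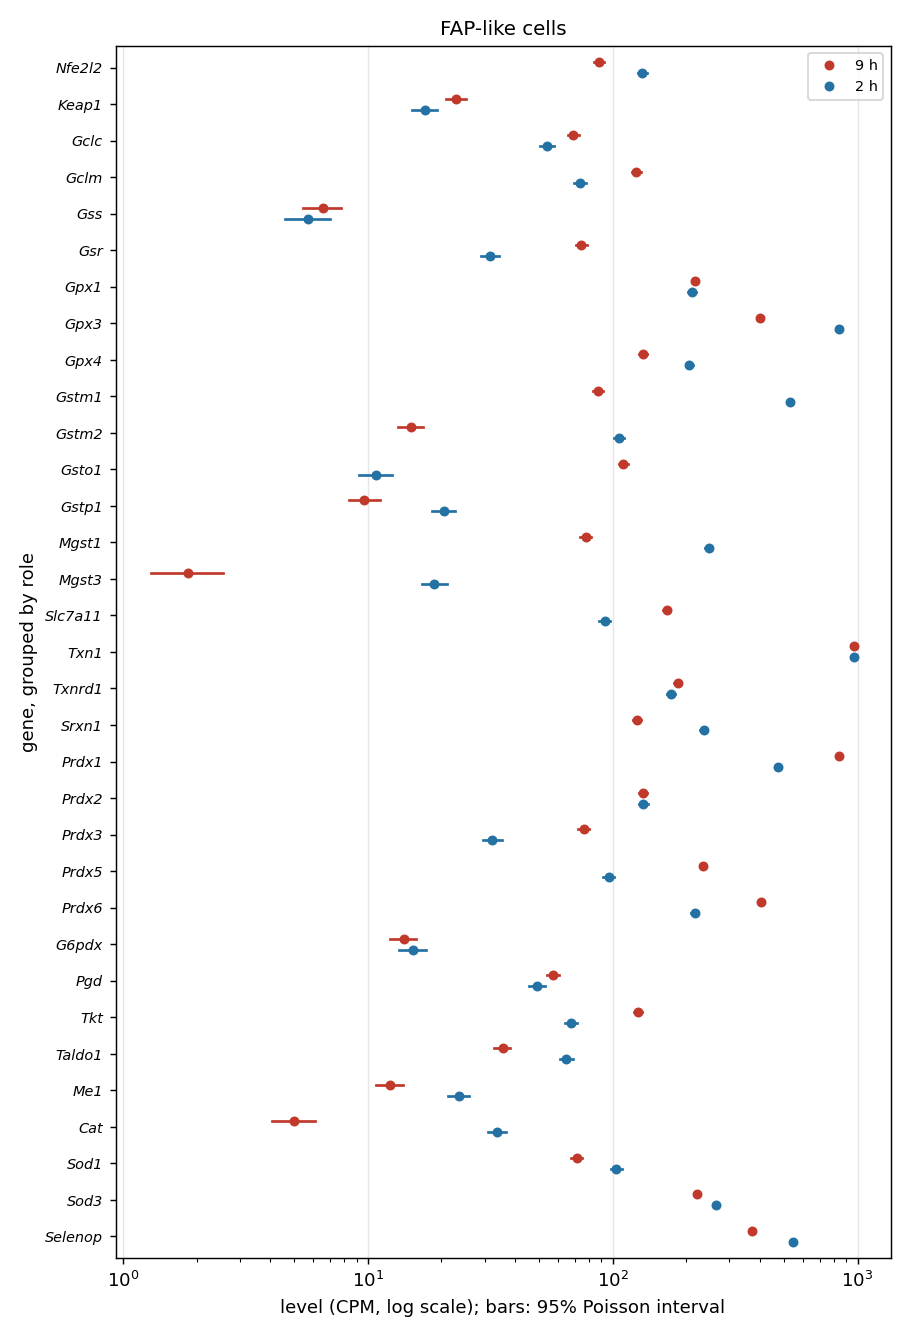
Level of each measured member in FAP-like cells at 9 h (red, drawn above) and 2 h (blue), in CPM on a log axis, with 95% Poisson intervals as bars. Gsto1 lies at 110.2 CPM at 9 h and 10.8 CPM at 2 h, while Gstm1, Gstm2, Mgst1, Mgst3 and Cat lie far to the left of their 2 h points.

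Of the 8 thioredoxin and peroxiredoxin genes measured in FAP-like cells, 4 peroxiredoxins stood above their 2 h level, and 2 of them passed 2-fold. Of all genes measured in these cells, 7.39% were at least 2-fold higher. Peroxiredoxins are enzymes that remove hydrogen peroxide and are restored by thioredoxin or, for Prdx6, by glutathione. Prdx5 was at 234 CPM at 9 h (227 to 241) and 96.4 CPM at 2 h (91.6 to 101), a ratio of 2.43, and mitochondrial Prdx3 at 76.3 and 32.3 CPM, a ratio of 2.36 (2.14 to 2.62). Prdx1 (chromosome 4, 116685544 to 116700822, plus strand), whose promoter is printed above, was at 839 and 474 CPM (ratio 1.77, 1.72 to 1.82), and Prdx6 at 405 and 216 CPM (ratio 1.87, 1.80 to 1.95). Both were under 2-fold, though Prdx6 passed it under TMM scaling (log2 ratio 1.01). Prdx2 was level, at 133 CPM at 9 h and 133 CPM at 2 h. Txn1, thioredoxin itself, was level too, at 963 CPM (949 to 977) and 964 CPM (949 to 979), and so nearly was Txnrd1, its reductase, at 184 and 173 CPM. Srxn1, sulfiredoxin, which repairs over-oxidised peroxiredoxins, was at 126 CPM at 9 h and 235 CPM at 2 h (ratio 0.538, 0.511 to 0.566).

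Txn1 differed in direction between cell types. Neutrophil-like cells had 466 CPM at 9 h (452 to 481) and 1241 CPM at 2 h (1204 to 1278). The ratio was 0.376 (0.360 to 0.393), and 31.3% of thinned cells had a UMI at 9 h against 65.5% at 2 h. Resident macrophage-like cells had 678 CPM at 9 h (638 to 721) and 291 CPM at 2 h (269 to 313). Here the ratio was 2.33 (2.12 to 2.58), with a UMI in 43.3% and 18.7% of thinned cells. RNA from FAP-like cells was estimated at 45.8 and 83.2 CPM of Txn1 in resident macrophage-like cells. The lower level at 9 h was also seen within 2 neutrophil-like clusters that both libraries share. Cluster 5 was at 558 CPM at 9 h and 1218 CPM at 2 h, and cluster 6 at 698 and 1259 CPM. Clusters 5 and 6 held 386 and 198 of the 4276 neutrophil-like cells at 9 h, and the difference was smaller inside them than in the class. Cluster 7, with 1418 cells at 9 h and 49 at 2 h, is not described for Txn1 or Taldo1. The monocyte-like, endothelial-like and dendritic-like cells lay above their 2 h level without reaching 2-fold, with 549 and 354 CPM in monocyte-like and 516 and 366 CPM in endothelial-like cells. Txnrd1, which keeps thioredoxin reduced, stayed within 2-fold everywhere: 258 and 199 CPM in neutrophil-like, 176 and 115 CPM in monocyte-like, 201 and 192 CPM in resident macrophage-like, 151 and 168 CPM in endothelial-like and 274 and 187 CPM in dendritic-like cells.

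The peroxiredoxins differed by class in where they were found. Prdx5 and Prdx6 were abundant in neutrophil-like cells, at 1384 and 989 CPM and at 863 and 595 CPM, whereas Prdx1 was at 25.3 and 16.8 CPM there, against 839 and 474 CPM in FAP-like cells. Resident macrophage-like cells had Prdx1 at 1161 CPM at 9 h (1108 to 1215) and 476 CPM at 2 h (449 to 506), a ratio of 2.44, and Prdx6 at 195 and 88.6 CPM, a ratio of 2.20 (1.83 to 2.64), a call lost at both other clustering resolutions. Prdx5 (244 and 134 CPM) and Prdx2 (93.5 and 127 CPM) were under 2-fold there. Monocyte-like cells had Prdx5 at 1002 and 756 CPM, Prdx6 at 623 and 358 CPM, Prdx1 at 742 and 598 CPM and Prdx2 at 121 and 186 CPM, all under 2-fold, except that Prdx6 passed it under TMM scaling (log2 ratio 1.01). Srxn1 was 2.61-fold higher there (44.2 and 16.9 CPM, from 91 and 22 UMIs), a call that was lost at both other clustering resolutions. In dendritic-like cells Prdx1 was at 621 and 381 CPM and Txn1 at 542 and 306 CPM, also under 2-fold, as were Prdx5 (140.2 and 75.1 CPM) and Prdx2 (78.5 and 149 CPM). Prdx6 was at 155 and 153 CPM in dendritic-like cells, where its direction turned under TMM scaling.

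In endothelial-like cells Prdx1 was at 544 and 386 CPM, under 2-fold. Prdx5 was at 258 CPM at 9 h and 97.8 CPM at 2 h (ratio 2.64, 2.14 to 3.28) and Prdx6 at 244 and 95.1 CPM (ratio 2.56, 2.07 to 3.20). Neutrophil RNA was estimated at 173 and 39.2 CPM of Prdx5 and at 108 and 23.6 CPM of Prdx6 in these cells, in which the 12 neutrophil markers summed to 15024 CPM at 9 h and 6025 CPM at 2 h. At a clustering resolution of 2, a cluster of 271 cells at 9 h and 42 at 2 h, led by haemoglobin and endothelial genes together (Hbb-bs, Ctla2a, Hba-a1 and Cdh5), was left unnamed and out of the class. There the log2 ratio of Prdx5 was -0.38 in place of 1.31, that of Prdx6 was 0.15 and that of Slc7a11 0.64. The 3 higher calls of endothelial-like cells therefore did not hold at that resolution.

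**Figure D3:**
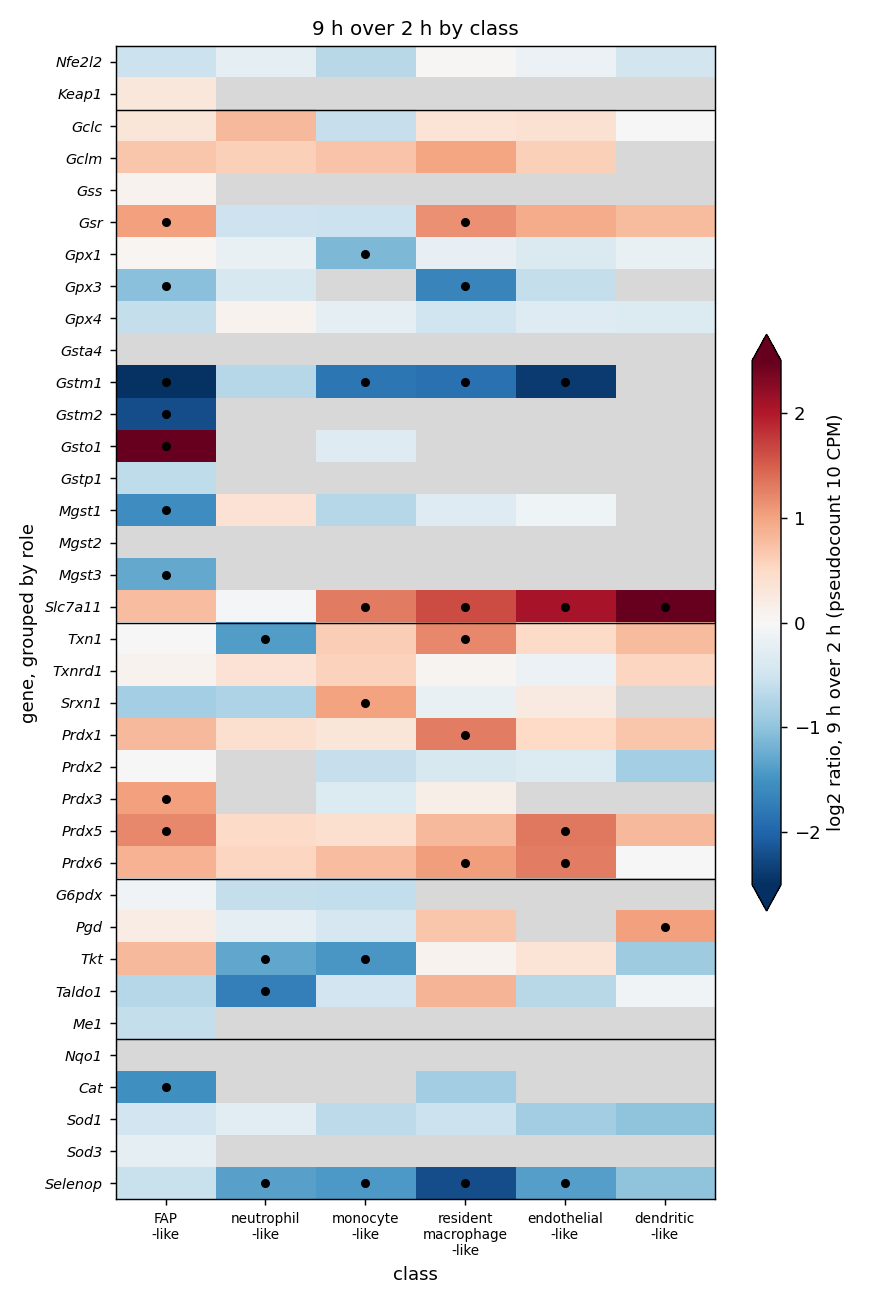
Log2 ratio of 9 h over 2 h, with a pseudocount of 10 CPM, for each member (rows, by role) in each compared class (columns): red is higher and blue lower at 9 h, grey is under 100 UMIs, and a black dot marks at least 2-fold. Slc7a11 is red in every class other than neutrophil-like cells, and Selenop and Sod1 are blue in all 6 classes.

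Of the pentose phosphate genes, 2 of the 4 measured in neutrophil-like cells were lower at 9 h, Taldo1 and Tkt, and 0 of the 5 measured in FAP-like cells passed 2-fold. Of all genes measured, 5.89% were lower in neutrophil-like cells, and 7.39% were higher and 9.28% lower in FAP-like cells. Taldo1 (chromosome 7, 141392199 to 141402968, plus strand), transaldolase of the non-oxidative branch, was at 247 CPM at 9 h (236 to 258) and 829 CPM at 2 h (799 to 859) in neutrophil-like cells, a ratio of 0.298 (0.281 to 0.315). It had a UMI in 20.5% of thinned cells at 9 h and 55.7% at 2 h, against 3.21% and 6.65% of FAP-like cells. Tkt, transketolase of the same branch, was at 27.7 and 82.8 CPM (ratio 0.334, 0.280 to 0.399). Pgd, of the oxidative branch that makes NADPH, was at 96.0 and 114 CPM, and G6pdx, its rate-limiting first enzyme, at 11.8 and 23.1 CPM (ratio 0.511, 0.377 to 0.695), which with the pseudocount was under 2-fold. Within cluster 5 Taldo1 was at 456 CPM at 9 h and 792 CPM at 2 h, and within cluster 6 at 701 and 847 CPM. The difference was thus smaller inside these clusters than in the class.

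In FAP-like cells Tkt was at 127 CPM at 9 h (122 to 132) and 67.6 CPM at 2 h (63.6 to 71.7), a ratio of 1.88, and Taldo1 at 35.5 and 64.6 CPM, a ratio of 0.549. Pgd was at 57.1 and 49.1 CPM there, and G6pdx at 14 and 15.3 CPM with overlapping intervals. Me1, malic enzyme, another source of NADPH, was measured in FAP-like cells only, which held 94.8% and 90.2% of its UMIs, at 12.3 and 23.5 CPM (ratio 0.521, 0.441 to 0.615). Both Me1 and Prdx1 hold the core with an overlapping TGANTCA in the windows printed above, and their levels in FAP-like cells lay on opposite sides of their 2 h values. Monocyte-like cells had Tkt at 120.0 and 345 CPM (ratio 0.348, 0.297 to 0.408), Taldo1 at 537 and 752 CPM and Pgd at 155 and 210.0 CPM. Resident macrophage-like cells had Taldo1 at 234 and 126 CPM (ratio 1.86, 1.59 to 2.17) and Pgd at 139 and 81.6 CPM, under 2-fold, and Tkt at 152 and 142 CPM. Taldo1 was at 74.8 and 128 CPM in endothelial-like cells, and at 313 and 335 CPM in dendritic-like cells, where Tkt was at 119 and 228 CPM. Pgd in dendritic-like cells was at 95.3 and 41.7 CPM (85 and 55 UMIs, ratio 2.28, 1.61 to 3.27), and this call was lost under 5 of the alternatives.

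**Figure D4:**
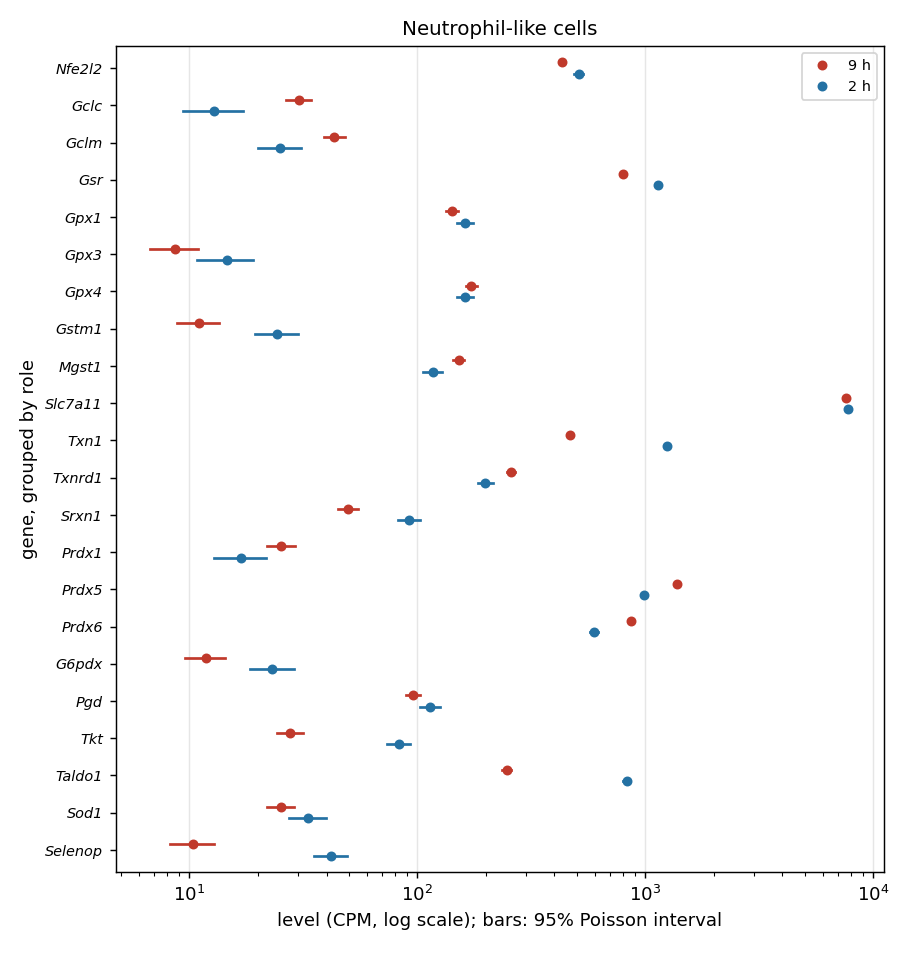
Level of each measured member in neutrophil-like cells at 9 h (red, drawn above) and 2 h (blue), in CPM on a log axis, with 95% Poisson intervals as bars. Slc7a11 lies far right at 7625 and 7737 CPM, and the 9 h points of Txn1, Tkt, Taldo1 and Selenop lie left of their 2 h points.

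Among the other antioxidant genes, Selenop and the dismutase Sod1 lay below their 2 h level in all 6 classes. Selenop passed 2-fold in 4 of them and Sod1 in 0. Selenop (chromosome 15, 3268547 to 3280508, plus strand) encodes the secreted selenoprotein that carries selenium between tissues. It was at 428 CPM at 9 h (396 to 462) and 2016 CPM at 2 h (1958 to 2075) in resident macrophage-like cells, a ratio of 0.212 (0.195 to 0.230), with a UMI in 29.4% and 64.9% of thinned cells, against 1.06% and 3.58% of neutrophil-like cells. FAP-like cells were at 370.4 and 546 CPM (ratio 0.678), monocyte-like cells at 89.4 and 258 CPM (ratio 0.346), and endothelial-like cells at 118 and 321 CPM (ratio 0.367). RNA from FAP-like cells was estimated at 60.5 and 69.4 CPM in endothelial-like cells, and at 17.6 and 47.1 CPM in resident macrophage-like cells. Neutrophil-like cells had 10.4 and 42.0 CPM (85 and 147 UMIs). The share of all Selenop UMIs in resident macrophage-like cells was 7.76% at 9 h and 31.1% at 2 h.

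Sod1, the cytosolic superoxide dismutase, was at 71.5 CPM at 9 h and 103 CPM at 2 h in FAP-like cells and at 135 and 278 CPM in dendritic-like cells, where the ratio was 0.483 (0.390 to 0.595) and just under 2-fold with the pseudocount. It was at 99.1 and 162 CPM in monocyte-like, 87.7 and 132 CPM in resident macrophage-like and 88.6 and 170.4 CPM in endothelial-like cells. Sod3, the secreted dismutase, was carried by FAP-like cells (93.8% and 86.7% of its UMIs), at 221 and 265 CPM. Cat, catalase, was at 5.0 CPM at 9 h (4.05 to 6.10) and 33.7 CPM at 2 h (30.9 to 36.7) in FAP-like cells, a ratio of 0.148 (0.118 to 0.184), and at 22.6 and 49.3 CPM in resident macrophage-like cells. Nqo1, a quinone reductase often used as an NRF2 target, was hardly found: FAP-like cells had 12 UMIs at 9 h (0.618 CPM) and 35 at 2 h (2.19 CPM), and no compared class reached the minimum.

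The members past 2-fold were counted in each class beside the share of all measured genes. In FAP-like cells 33 members were measured: 4 were higher (Gsr, Gsto1, Prdx3 and Prdx5) and 6 lower (Gpx3, Gstm1, Gstm2, Mgst1, Mgst3 and Cat), where 7.39% of the 10446 genes measured were higher and 9.28% lower. In neutrophil-like cells 22 were measured, 0 were higher and 4 lower (Txn1, Tkt, Taldo1 and Selenop), against 4.77% and 5.89% of 4908 genes. In monocyte-like cells 24 were measured, 2 were higher (Slc7a11 and Srxn1) and 4 lower (Gpx1, Gstm1, Tkt and Selenop), against 4.69% and 6.04% of 3838 genes. In resident macrophage-like cells 24 were measured, 5 were higher (Gsr, Slc7a11, Txn1, Prdx1 and Prdx6) and 3 lower (Gpx3, Gstm1 and Selenop), against 4.12% and 8.04% of 4442 genes. In endothelial-like cells 21 were measured, 3 were higher (Slc7a11, Prdx5 and Prdx6) and 2 lower (Gstm1 and Selenop), against 7.53% and 8.40% of 4368 genes. In dendritic-like cells 17 were measured, 2 were higher (Slc7a11 and Pgd) and 0 lower, against 5.74% and 5.60% of 2876 genes. TMM scaling moved these shares of all genes to 9.35% and 7.83% in FAP-like, 6.01% and 4.38% in neutrophil-like, 7.19% and 3.49% in monocyte-like and 4.66% and 7.51% in dendritic-like cells. With 1 library per time, no test set the members' counts against these shares.

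By role, the measured thioredoxin and peroxiredoxin genes had median log2 ratios of 0.45 in FAP-like cells (8 genes), 0.38 in neutrophil-like cells (6), 0.49 in monocyte-like cells (8), 0.48 in resident macrophage-like cells (8), 0.48 in endothelial-like cells (7) and 0.61 in dendritic-like cells (6). The measured other antioxidant genes had medians of -0.51 (4 genes), -0.82 (2), -1.05 (2), -0.86 (3), -1.12 (2) and -1.0 (2) in the same order of classes. The medians of all genes measured were between -0.09 and 0.04. The median of the glutathione genes was -0.28 in FAP-like cells (14 genes), -0.02 in neutrophil-like cells (9) and -0.53 in monocyte-like cells (9). It was -0.21 in resident macrophage-like cells (9), -0.11 in endothelial-like cells (9) and 0.00 in dendritic-like cells (5). The pentose phosphate genes had medians of -0.08 in FAP-like cells (5), -0.95 in neutrophil-like cells (4) and 0.70 in resident macrophage-like cells (3). Their medians were -0.55 in monocyte-like cells (4), -0.18 in endothelial-like cells (2) and -0.09 in dendritic-like cells (3).

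Within FAP-like cells the members also differed among clusters of the same library. At 9 h Srxn1 was at 159.5 CPM in cluster 14 (led by Cxcl5), 58.1 CPM in cluster 15 (led by Krtdap) and 19.1 CPM in cluster 19 (led by Saa1). Selenop ran the other way, at 239, 343 and 918 CPM, and Gpx3 was at 322, 247 and 803 CPM. Mgst1 was at 43.0, 106 and 197 CPM, so that cluster 19 came nearest to the 2 h clusters 1 and 0, which were at 234 and 279 CPM. Gsto1 was at 126, 85.7 and 61.4 CPM in clusters 14, 15 and 19, and at 12.9 and 5.18 CPM in clusters 1 and 0 at 2 h. Gstm1 was at 51.4, 198 and 152 CPM at 9 h, and at 458 and 708 CPM at 2 h. For these 2 genes the levels of the 9 h clusters and the 2 h clusters did not overlap. The clusters are themselves split mostly by time, and the share of all genes with such a pattern was not counted. The 38 cells of cluster 1 at 9 h had 71.3 CPM of Gsto1 and 267 CPM of Gstm1. Leaving out clusters 14 and 19 kept all 10 calls of FAP-like cells and added Prdx6 and Tkt as higher and Srxn1 as lower. Of all genes, 7.53% were then higher and 8.11% lower. This left 220 cells of cluster 15, 38 of cluster 1 and 14 of cluster 0 at 9 h. At 2 h it left mostly clusters 1 (1400 cells) and 0 (575 cells). Different clusters are thus compared, and their part in these calls was not tested.

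**Figure D5:**
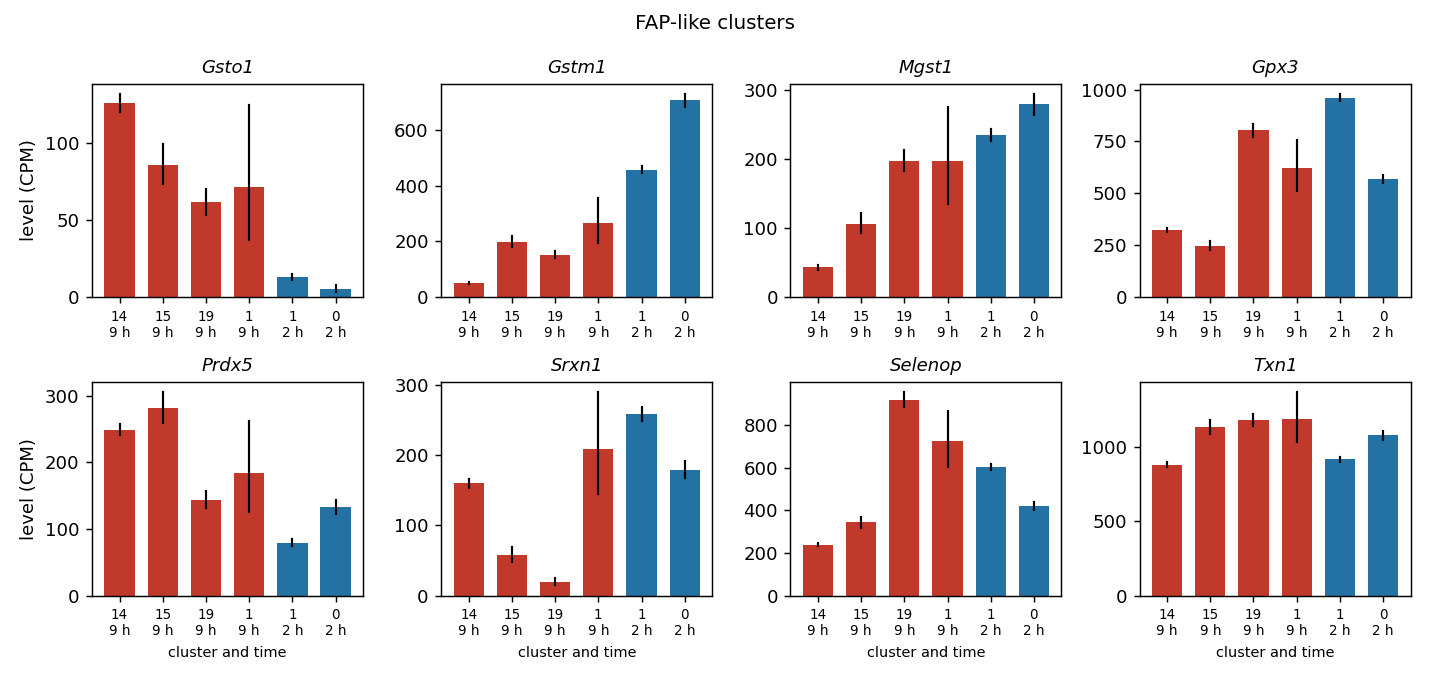
Level (CPM) of 8 members in the FAP-like clusters with at least 38 cells in a library, 9 h in red and 2 h in blue, with 95% Poisson intervals as lines. Gsto1 is higher and Gstm1 lower in every 9 h bar than in every 2 h bar, in clusters that are themselves split mostly by time. Srxn1 (19.1 to 208 CPM) and Selenop (239 to 918 CPM) vary widely among the 9 h clusters.

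Genes of the same pathways that are not among the 36 were read from 7 lists with 107 genes in the files. In FAP-like cells 7.39% of all genes measured were higher and 9.28% lower. Of the other NRF2-linked genes, 1 of 23 measured was higher and 5 lower in FAP-like cells, with a median log2 ratio of -0.22 against 0.00 for all genes. The median of this list was above 0 in the other classes. It was 0.15 in neutrophil-like, 0.34 in monocyte-like, 0.08 in resident macrophage-like, 0.24 in endothelial-like and 0.67 in dendritic-like cells. In FAP-like cells Hmox1, haem oxygenase, was the higher one, at 428 CPM at 9 h and 169.9 CPM at 2 h (ratio 2.52, 2.41 to 2.63). The lower ones were Ugdh, which makes UDP-glucuronic acid (784 and 3214 CPM), Blvrb, biliverdin reductase B (33.3 and 100.4 CPM), Ephx1, an epoxide hydrolase (6.85 and 51.2 CPM), Pir (6.95 and 32.3 CPM) and Bach1, a repressor at antioxidant response elements (54.9 and 128 CPM). Bach1 was also lower in resident macrophage-like cells (139 and 437 CPM) and in dendritic-like cells (104 and 338 CPM). Fth1, the ferritin heavy chain, was higher in 5 of the 6 classes, for example at 46609 CPM at 9 h and 19929.6 CPM at 2 h in neutrophil-like cells (ratio 2.34, 2.32 to 2.36) and at 24334 and 10215 CPM in resident macrophage-like cells.

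Sod2, the mitochondrial superoxide dismutase, was past 2-fold higher in all 6 classes. It was at 342 CPM at 9 h and 50.8 CPM at 2 h in neutrophil-like cells (ratio 6.72, 5.78 to 7.87), 879 and 216 CPM in FAP-like cells (ratio 4.06, 3.91 to 4.21) and 522 and 205 CPM in resident macrophage-like cells. Monocyte-like cells were at 368 and 154 CPM, dendritic-like cells at 259 and 98.6 CPM and endothelial-like cells at 251 and 82.5 CPM, in which neutrophil RNA was estimated at 42.6 and 2.01 CPM. The cytosolic Sod1 was below its 2 h level in the same 6 classes. The Glrx glutaredoxin was higher in monocyte-like cells (385 and 107 CPM), resident macrophage-like cells (229 and 67.2 CPM) and FAP-like cells (41.9 and 13.8 CPM), and in endothelial-like cells (93.0 and 33.2 CPM), where neutrophil RNA was estimated at 77.5 and 15.8 CPM.

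The counts of the other lists in FAP-like cells stand beside 7.39% of all genes measured higher and 9.28% lower, and no test set them against these shares. Of the 13 other genes of the pentose phosphate pathway and NADPH supply, 5 were higher and 2 lower in these cells. Rpia, which forms ribose phosphate, was at 58.0 and 19.8 CPM, Prps1, which turns it into the activated form for nucleotides, at 88.5 and 31.0 CPM, and H6pd, the pathway's first enzyme in the endoplasmic reticulum, at 117 and 40.3 CPM. Mthfd1 and Mthfd2 of the folate cycle were at 32.0 and 5.07 CPM and at 77.4 and 16.5 CPM, while the isocitrate dehydrogenases Idh1 and Idh2 were lower, at 13.0 and 44.9 CPM and at 3.55 and 18.5 CPM. Of 18 other glutathione genes measured in these cells, 4 were lower (Gpx7, Gstt1, Gstt3 and Ggt5) and 1 higher (Esd). Gstt1, a theta-class transferase, was at 3.09 CPM at 9 h and 61.1 CPM at 2 h (ratio 0.0506, 0.0383 to 0.0657), and Esd, which acts on a formaldehyde adduct of glutathione, at 322 and 96.5 CPM (ratio 3.34, 3.15 to 3.53). Of 17 other thioredoxin genes, 3 were higher (Txn2, Glrx and Glrx5) and 1 lower (Sesn3), and mitochondrial Txn2 was at 153 and 60.2 CPM. Among 15 selenoprotein and selenium genes, 0 were higher and 3 lower (Selenom, Selenon and Lrp1). Among 9 NADPH oxidase genes, 0 were higher and 0 lower.

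In neutrophil-like cells Ucp2, an uncoupling protein of mitochondria, was lower at 9 h (247 CPM at 9 h and 704 CPM at 2 h), and the metallothioneins Mt1 (967 and 463 CPM) and Mt2 (263 and 110.2 CPM), which bind metals, were higher. Selenos, a selenoprotein of the endoplasmic reticulum, was higher in monocyte-like cells (215 and 94.6 CPM) and in neutrophil-like cells (50.8 and 9.42 CPM).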

How the data were processed

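Mononuclear cells of injured quadriceps were sequenced with the 10x 3′ v3.1 chemistry, 1 library at 9 h and 1 at 2 h. The deposited values are raw counts, UMIs per gene and barcode. The submitters' processing notes name Cell Ranger 5.0.0 and the mm10 build; the gene annotation behind the authors' counts is not given in the sources used here. Cells with under 500 UMIs or 200 genes or over 20% mitochondrial UMIs were removed. Scrublet called 0 cells at 9 h and 6 at 2 h, under 0.5% of cells, and its calls were set aside. Cells were clustered with Scanpy 1.11.5 (2000 variable genes without the members and pathway lists, 30 components, 15 neighbours, Leiden resolution 1, no batch correction). Clusters were named from 19 marker lists when at least 3 markers were found in 10% of their cells, the marker score, taken against the median cluster, was above 0.5 and at least 1.5 times that of any other class with 3 such markers, and another class did not lead in the 10 top genes. UMIs were summed per class and library and scaled to CPM by the class total. Genes of the lists that occur on 2 rows were left out. Exact Poisson, Clopper-Pearson and conditional binomial intervals (95%) cover counting error only; PCR and cell-to-cell spread are not in them. No test was made with 1 library per time. Members and lists were chosen with earlier results of these data known. Members at 100 CPM or more in 1 library, or past 2-fold, are named with values. The ratio step was run on simulated Poisson counts for FAP-like cells (10446 genes). Intervals held the true fold for 98.0%, 98.0%, 96.0% and 90.0% of 50 genes each at folds of 0.25, 0.5, 2 and 4. They held it for 93.2% of 500 unchanged genes. The intervals are built for such counts, so this checks the arithmetic only and not the spread between cells or animals. At folds of 0.25 and 4, 35 and 36 of the 50 genes were past 2-fold, since the pseudocount of 10 CPM shrinks low genes. At folds of 0.5 and 2, which lie at the threshold before the pseudocount, 0 were past it. Of the unchanged genes 0 were past it. TMM scaling used edgeR 4.0.16. Gene positions are from GENCODE M21 on mm10, matched by identifier for all 36 members. A result for 1 gene of the other lists is not reported here.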

Additional observations from a re-analysis of the deposited data

Results flagged for a closer look

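Txn1 passed 2-fold in opposite directions in different classes, with a log2 ratio of -1.39 in neutrophil-like cells and 1.20 in resident macrophage-like cells. The difference between the classes was not tested, since each class has 1 library per time.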

How the results depend on the processing

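No paired analysis was possible because each time has 1 library. Of the values past 2-fold, 1 changed sign: the log2 ratio of Prdx5 in endothelial-like cells was -0.38 at clustering resolution 2. Members under 2-fold also changed sign, among them the log2 ratio of Prdx6 in dendritic-like cells (-0.11 under TMM scaling). TMM scaling moved the median log2 ratio of all genes by over 0.1 in monocyte-like (to 0.11), neutrophil-like (to 0.04) and dendritic-like cells (to -0.12). Counts of members past the threshold moved by over 1.5 times as follows, and the cause was not tested except where the alternative itself sets it. With the lower threshold of 1.5-fold, 9 members were higher and 11 lower in FAP-like cells, 2 and 7 in neutrophil-like cells, 5 and 8 in monocyte-like cells, 6 and 4 in dendritic-like cells and 5 and 5 in endothelial-like cells, and 9 were higher in resident macrophage-like cells. At that threshold 17.8% of all genes were higher and 19.7% lower in FAP-like, 11.6% and 16.3% in neutrophil-like, 11.2% and 17.1% in monocyte-like, 12.9% and 14.5% in dendritic-like, 17.2% and 18.1% in endothelial-like, and 13.6% and 16.1% in resident macrophage-like cells. With cells thinned to 1000 UMIs, fewer members were measured. Of 26 in FAP-like cells 3 were lower (12.6% of all genes), and of 11 in endothelial-like cells 1 was lower (8.98% of all genes). Of 7 in resident macrophage-like cells 3 were higher and 1 lower (7.52% and 7.39% of all genes). Of 11 in monocyte-like cells 1 was higher and 1 lower (10.9% and 5.50% of all genes). In dendritic-like cells only 2 were measured and 0 were higher (7.55% of all genes). With a pseudocount of 1 CPM, 1 was higher in neutrophil-like cells (8.62% of all genes) and 2 were lower in dendritic-like cells (7.20% of all genes). Without the filter on UMIs, 5 of 35 were lower in endothelial-like cells, and 5 of 32 were higher and 1 lower in dendritic-like cells. Of all genes, 4.11% were then lower in endothelial-like cells, and 2.99% were higher and 1.90% lower in dendritic-like cells. In endothelial-like cells at clustering resolution 2, 0 of 16 were higher, against 5.15% of all genes. In monocyte-like cells 1 was higher at clustering resolutions of 0.5 and 2, when the members took part in the clustering, and with each cell weighted alike. Of all genes there, 4.53% to 4.64% were higher at these settings. In dendritic-like cells 1 was higher and 3 were lower under TMM scaling, 1 and 1 at clustering resolution 2 and with the members in the clustering, and 1 and 2 without the cells of highest doublet score, and 1 was lower with a mitochondrial share of at most 10%. Of all genes there, 4.66% to 5.84% were higher and 5.48% to 7.51% lower at these settings. At clustering resolution 0.5 no cluster was named dendritic-like, so no value was had. With thinned cells the calls lost were Gpx3, Mgst3 and Cat in FAP-like cells, Gsr, Prdx6, Gpx3 and Gstm1 in resident macrophage-like cells, Srxn1, Gstm1, Tkt and Selenop in monocyte-like cells, Gstm1 in endothelial-like cells, and Slc7a11 and Pgd in dendritic-like cells. Such a call is lost also when the member falls under 100 UMIs after thinning, and not only when the ratio falls under 2-fold. A member at the minimum rests on 100 UMIs in every class.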
